A study of Heliocidaris erythrogramma with 7 samples.

Results

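The step between 6 and 9 h post-fertilization (hpf) was examined in *Heliocidaris erythrogramma* (*He*), an Australian sea urchin whose larva does not feed and develops on the yolk of a large egg (lecithotrophy). The comparison was built from the 9 hpf and the 6 hpf single-cell RNA-seq library, 2 of the 7 libraries of 6 to 30 hpf. Cells with over 200 and under 4000 genes and under 10000 unique molecular identifiers (UMIs, tags that count captured RNA molecules) were kept, which left 4034 cells at 9 hpf and 2065 cells at 6 hpf, 6099 of the 23156 cells of all 7 libraries. Both groups were untreated whole embryos, dissociated into single cells and fixed in methanol. The labels call every time point larvae, give no strain or parent, and describe 1 library per time point, so there were no replicates. All libraries were made with the Chromium 3′ kit v3.1 and shared a flow cell. Time and library therefore cannot be told apart, no test was made, and every interval below covers counting error only.

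At these hours a sea urchin embryo passes from late cleavage to the blastula. Egg-supplied (maternal) RNAs are removed while the embryo's own genome is transcribed, and transcription factors and signals mark out the first territories. The animal pole domain forms under *six3* and *foxq2*, and the vegetal endomesoderm, the source of gut and mesoderm, forms under Wnt signals. The blastula then secretes a hatching enzyme that dissolves the fertilization envelope, and it grows cilia.

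The 9 hpf library held 10769034 UMIs and the 6 hpf library 5700817 UMIs, and the median cell had 2477.5 UMIs and 1360 genes at 9 hpf and 2581 UMIs and 1432 genes at 6 hpf. UMIs were summed over the cells of a library and scaled to a library total of 1000000 UMIs (CPM), so that 10 CPM stood for 107.7 UMIs at 9 hpf and 57.0 UMIs at 6 hpf. A count of 0 allows up to 3 UMIs, or 0.279 CPM at 9 hpf and 0.526 CPM at 6 hpf. A summed level does not separate fewer cells that hold an RNA from less of that RNA in each cell. For shares of cells with a UMI, each cell was thinned to 1000 UMIs, which left 3858 cells at 9 hpf and 1881 cells at 6 hpf. The 2 libraries had 4 cell barcodes in common.

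The labels were set beside the markers of the atlas cell types. The atlas includes these libraries, so the sums are no independent check of the labels. The 4 animal pole markers summed to 2307 CPM at 9 hpf and 210.5 CPM at 6 hpf, and the 4 endomesoderm markers to 841 CPM at 9 hpf and 30.7 CPM at 6 hpf. Markers of early ectoderm summed to 14999 CPM at 9 hpf and 39292 CPM at 6 hpf. Sums were lower for the markers of differentiated pigment, blastocoelar and skeletal cells. Later cell types differed in this. Markers of verified rudiment ectoderm summed to 2351 CPM at 9 hpf and 3619 CPM at 6 hpf, and those of ciliary band to 941 CPM at 9 hpf and 106 CPM at 6 hpf. Markers of gut and left coelomic pouch summed to 23.9 CPM at 9 hpf and 10.9 CPM at 6 hpf. The 4 pigment markers summed to 39.4 CPM at 9 hpf and 4.56 CPM at 6 hpf, the 4 blastocoelar markers to 72.3 CPM at 9 hpf and 14.2 CPM at 6 hpf, the 4 skeletal markers to 18.9 CPM at 9 hpf and 3.68 CPM at 6 hpf, and the 3 neural markers, mainly *calml1* features, to 631 CPM at 9 hpf and 787 CPM at 6 hpf. The pigment marker *mif4* had 18.4 CPM at 9 hpf and 2.46 CPM at 6 hpf, and *scl*, a marker of early mesoderm and blastocoelar cells, had 29.3 CPM at 9 hpf and 9.30 CPM at 6 hpf. Others were near 0, as the pigment gene *pks1* was at 1.86 CPM at 9 hpf and 1.40 CPM at 6 hpf, the skeletal gene *msp130r2* at 0.93 CPM at 9 hpf and 1.58 CPM at 6 hpf, and no *irf4* feature of blastocoelar cells passed 0.1 CPM in either library. Of the wider lists for such cells, 5 of 40 pigment, 2 of 16 blastocoelar, 2 of 25 skeletal and 9 of 49 neural features reached 10 CPM in either library, and 4, 2, 1 and 6 of these were higher at 9 hpf by 2-fold or more.

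A feature, a row of the deposited tables, was compared if it reached 10 CPM in either library, and 8845 of 38707 features did. Of these, 7453 carried a gene name. Change was measured as log2 of the level at 9 hpf over that at 6 hpf after 1 CPM was added to both. By this measure 1920 features (21.7%) were higher at 9 hpf by 2-fold or more and 1618 (18.3%) were lower. The 2 directions differed more at 4-fold, with 956 features (10.8%) higher and 307 (3.47%) lower. The median feature stood at −0.10, with quartiles of −0.77 and 0.79. The 956 features took 23.3% of all UMIs at 9 hpf and 2.99% at 6 hpf, and their median level was 50.1 CPM at 9 hpf and 4.91 CPM at 6 hpf.

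**Figure D1:**
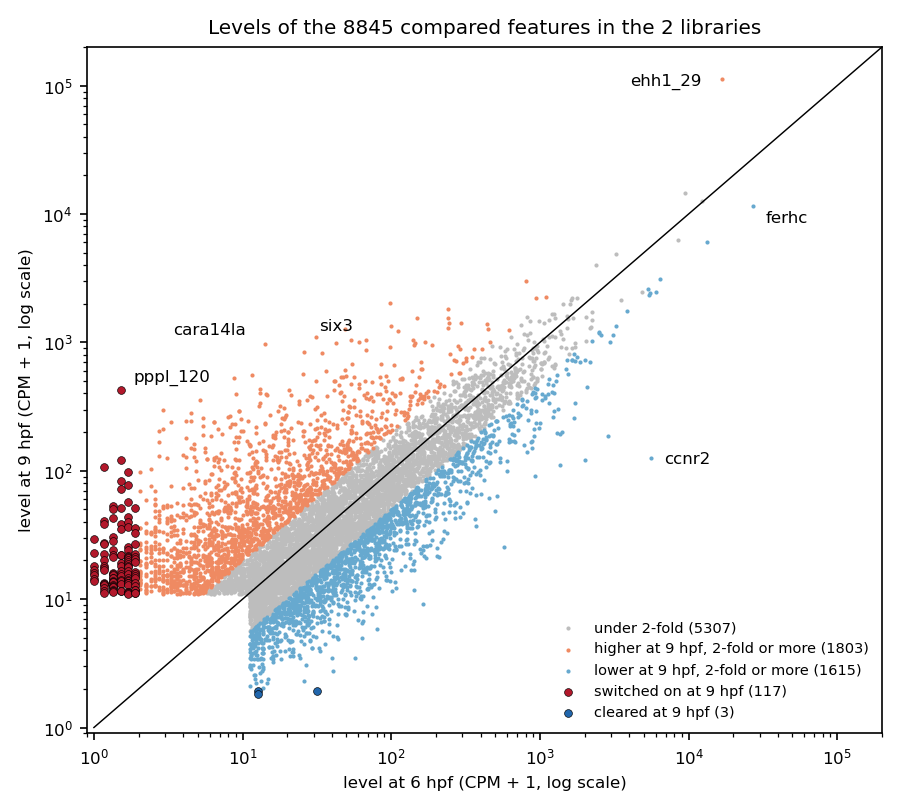
Level of each of the 8845 compared features at 9 hpf (vertical) against 6 hpf (horizontal), in CPM plus 1 on log scales, with the line of equal level. The 117 switched-on features (dark red) form the left edge, only 3 features (dark blue) were cleared, and *ehh1_29* lies highest, at 112145 CPM at 9 hpf and 16651 CPM at 6 hpf.

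Few abundant RNAs were lost to below 1 CPM. A feature was called cleared if it had at least 10 CPM at 6 hpf and under 1 CPM at 9 hpf, and 3 features (0.0339%) met this. They were *irf2bp* (HER_17960.t1) with 0.93 CPM at 9 hpf and 30.5 CPM at 6 hpf, *dhdh* (HER_25810.t1) with 0.93 CPM at 9 hpf and 11.8 CPM at 6 hpf, and *cyp2l48* (HER_8106.t1) with 0.84 CPM at 9 hpf and 11.8 CPM at 6 hpf. The limit of 1 CPM stood at 10.8 UMIs at 9 hpf, and these features had 10, 10 and 9 UMIs there. Of the 307 features that were lower by 4-fold, 168 still had 10 CPM or more at 9 hpf. Gain from a level under 1 CPM was more frequent, and such features were called switched on: 117 features (1.32%) had at least 10 CPM at 9 hpf and under 1 CPM, at most 5 UMIs, at 6 hpf.

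A single RNA dominated the gain. *ehh1_29* (HER_5737.t1), named as an early histone H1, the linker histone of chromatin, took 112145 CPM at 9 hpf and 16651 CPM at 6 hpf. Its share of all UMIs was thus 11.2% at 9 hpf and 1.67% at 6 hpf, a ratio of 6.74 (95% interval 6.69 to 6.78). The higher level was seen in nearly every cell. At 9 hpf it made up 0.0436% to 23.9% of a cell's UMIs (median 11.1%), with 6.75% at the 5th percentile, while at 6 hpf the median was 1.56%, the 95th percentile 3.61% and the highest cell 9.20%. All 4034 cells at 9 hpf and 2061 of 2065 cells at 6 hpf had a UMI of it. The kit primes on poly(A) tails, which histone mRNAs of dividing animal cells mostly lack, so these are the molecules that such priming caught.

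Because levels are shares of a total, so abundant an RNA lowers all others at 9 hpf. With *ehh1_29* left out of both totals the median feature moved to 0.06, a shift of over 0.1, with 2196 features higher and 1307 lower by 2-fold. Single values below can be read against that shift. Of the median changes of the gene lists, those of proteasome and chaperones (−0.11) and of solute carriers (−0.13) turned positive (0.03 and 0.05) under it, and the other lists kept their sign.

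The 5 named features with the largest gain in CPM were *ehh1_29*, the histone variant *hh2az* (14478 CPM at 9 hpf and 9438 CPM at 6 hpf), *hmg1*, an HMG-box chromatin protein (4909 CPM at 9 hpf and 3225 CPM at 6 hpf), *atp11* (4016 CPM at 9 hpf and 2400 CPM at 6 hpf) and *msy* (3019 CPM at 9 hpf and 805 CPM at 6 hpf). Among these *msy* changed the spread over cells most, with a UMI in 94.6% of thinned cells at 9 hpf and 54.8% at 6 hpf. The largest losses were those of *ferhc* (11491 CPM at 9 hpf and 27075 CPM at 6 hpf), *abcc5d* (6023 CPM at 9 hpf and 13308 CPM at 6 hpf), *ccnr2*, *yp303* (HER_1554.t1, 2485 CPM at 9 hpf and 6082 CPM at 6 hpf) and *gs* (3122 CPM at 9 hpf and 6407 CPM at 6 hpf). Except for *ccnr2*, these RNAs remained in 88.8% or more of the thinned cells at 9 hpf.

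*ccnr2* (HER_17729.t1), a marker that the atlas gives to both early ectoderm and undifferentiated cells, had the most negative log2 change among named features with 50 CPM or more. It had 125 CPM at 9 hpf and 5620 CPM at 6 hpf, a ratio of 0.0223 (0.0211 to 0.0235). A UMI of it was found in 9.49% of thinned cells at 9 hpf and in 99.3% at 6 hpf. It was lower still in the later libraries, with 20.8 CPM at 12 hpf and 4.28 CPM at 30 hpf.

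Other abundant RNAs were lower by over 10-fold. *rrp8l* was at 121 CPM at 9 hpf and 2000 CPM at 6 hpf, *hypp_2609*, a hypothetical protein, at 187 CPM at 9 hpf and 2867 CPM at 6 hpf, and *tbpaf_rna_polib*, by its name a TBP-associated factor of RNA polymerase I, at 109 CPM at 9 hpf and 1368 CPM at 6 hpf. These 3 were detected in 9.12% to 14.2% of thinned cells at 9 hpf and in 74.5% to 93.4% at 6 hpf. Of the less abundant features, *tincl* had 24.4 CPM at 9 hpf and 570.3 CPM at 6 hpf, and *hdlhd3* had 47.9 CPM at 9 hpf and 495 CPM at 6 hpf. *kat* (8.17 CPM at 9 hpf and 164 CPM at 6 hpf), *2pde_1* (10.7 CPM at 9 hpf and 141 CPM at 6 hpf), *fechl* (4.83 CPM at 9 hpf and 79.8 CPM at 6 hpf), *rassf9l* (3.99 CPM at 9 hpf and 62.3 CPM at 6 hpf) and *c14orf159l* (2.51 CPM at 9 hpf and 56.5 CPM at 6 hpf) were near or under the 10 CPM limit at 9 hpf. The remaining member of the 12 most negative changes was a histone, *ehh2b_68* (HER_19575.t1), with 90.3 CPM at 9 hpf and 920 CPM at 6 hpf.

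The markers of early ectoderm and undifferentiated cells were mostly lower at 9 hpf. The study chose them on an atlas that includes these libraries, so their direction is not independent evidence. Of 24 compared features 14 were lower by 2-fold or more and 2 higher, with a median of −1.11. *c8orf48l* had 257 CPM at 9 hpf and 1687 CPM at 6 hpf, and *igf1*, an insulin-like growth factor, had 168 CPM at 9 hpf and 672 CPM at 6 hpf. Of 14 compared features named *yp303*, after a yolk platelet protein, 9 were lower by 2-fold or more and none higher. Features of a shared name did not all move alike: *el1l4* HER_8313.t1 had 448 CPM at 9 hpf and 2085 CPM at 6 hpf, while *el1l4* HER_8198.t1 had 178 CPM at 9 hpf and 57.0 CPM at 6 hpf. In the wider list of extracellular layer and yolk proteins, 16 of 40 compared features were lower and 7 higher, with a median of −0.68.

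The largest positive changes were those of RNAs close to absent at 6 hpf. The feature *pppl_120* HER_4443.t1 had 4588 UMIs (426 CPM) at 9 hpf and 3 UMIs (0.53 CPM) at 6 hpf, a ratio of 810 with an interval of 277 to 3927, and it was found in 30.0% of thinned cells at 9 hpf and 0.0532% at 6 hpf. *tcknr2* followed with 298 CPM at 9 hpf and 1.93 CPM at 6 hpf, then *hypp_2317* with 107 CPM at 9 hpf and 0.18 CPM, a single UMI, at 6 hpf. The ratio of *hypp_2317* was 609, and its interval ran from 109 to 24066. *hypp_289* (204 CPM at 9 hpf and 1.75 CPM at 6 hpf), *rergl2* (211 CPM at 9 hpf and 1.93 CPM at 6 hpf) and *vti1ah* (239 CPM at 9 hpf and 2.28 CPM at 6 hpf) were in 17.2% to 20.9% of thinned cells at 9 hpf and in at most 0.319% at 6 hpf.

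*cara14la* combined a large change with a high level, 976 CPM at 9 hpf and 13.2 CPM at 6 hpf, and reached 50.03% of thinned cells at 9 hpf and 1.22% at 6 hpf. It went on to 5073 CPM at 12 hpf. The other named features among the 12 largest positive changes were a second *pppl_120* (HER_6662.t1, 165 CPM at 9 hpf and 1.75 CPM at 6 hpf), *thap2* HER_42844.t1, by its name a THAP zinc finger protein (96.8 CPM at 9 hpf and 0.70 CPM at 6 hpf), and 3 transcription factors of the early territories, *hbn*, *foxa* and *erg*.

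Genes of the embryonic territories were largely higher at 9 hpf, and the plot of the share of each list that was higher or lower shows them at the top. The lists were fixed by gene name with earlier results of these data known, so the counts describe and do not test. Among all compared features 21.7% were higher by 2-fold or more, against 15 of 18 (83.3%) in the endomesoderm list, 16 of 24 (66.7%) in the ectoderm axis list, 12 of 19 (63.2%) in the mesoderm list and 5 of 6 (83.3%) in the animal pole list. The medians of these lists lay between 1.52 and 3.43, against −0.10 over all features.

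**Figure D2:**
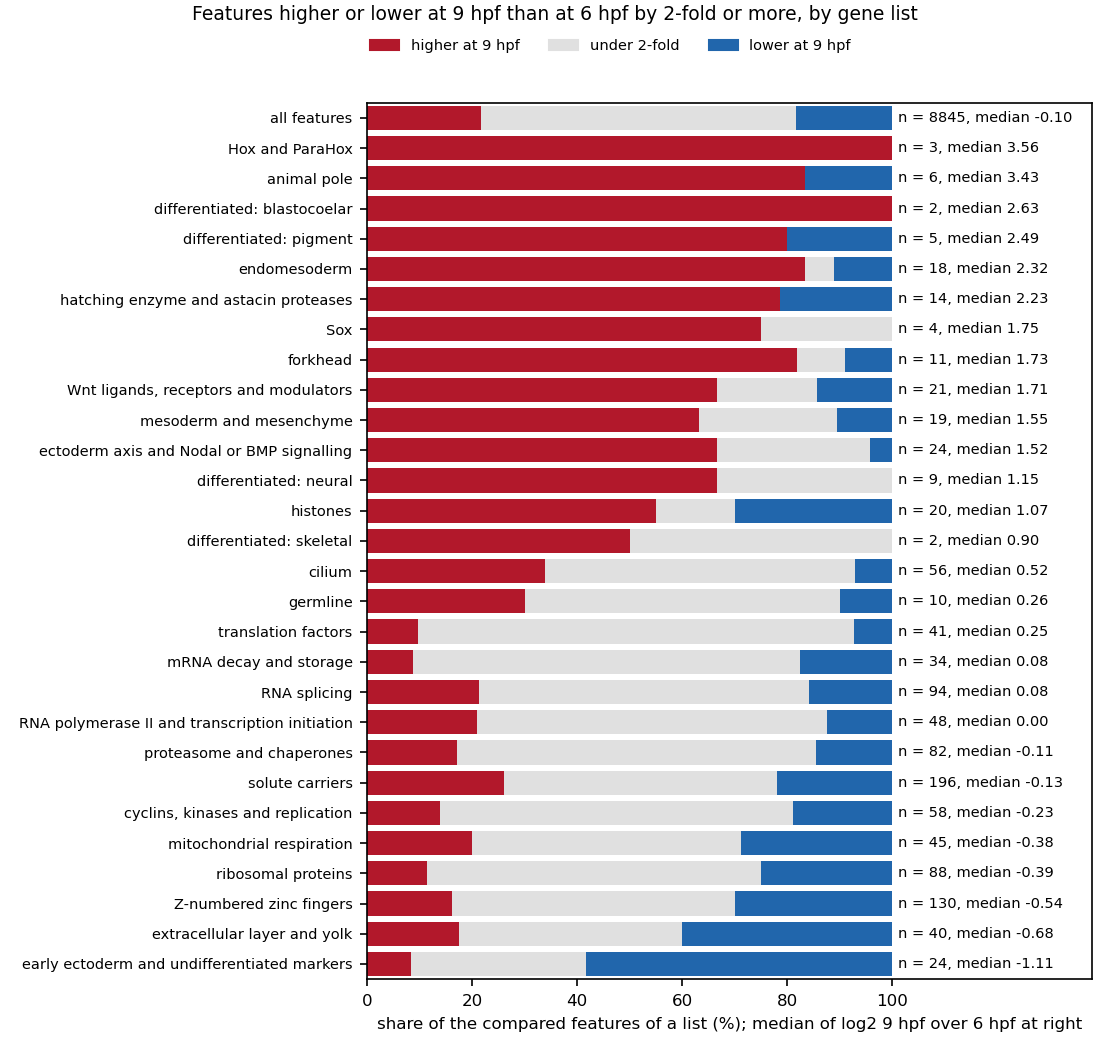
Share of the compared features of each gene list that was higher at 9 hpf than at 6 hpf by 2-fold or more (red), lower (blue) or neither (grey), with the number compared and the median log2 at the right. Lists of territory genes, Wnt, forkhead and hatching lie above the histones, and early ectoderm and undifferentiated markers lie lowest, at a median of −1.11, beside 21.7% higher and 18.3% lower over all features.

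Of the animal pole genes, the homeobox gene *hbn* had 530 CPM at 9 hpf and 7.72 CPM at 6 hpf, a ratio of 68.7 (51.1 to 94.7). The homeobox gene *six3*, which marks the anterior neurectoderm, had 987 CPM at 9 hpf and 41.4 CPM at 6 hpf. *sfrp1/5*, which encodes a secreted modulator of Wnt signals, had 824 CPM at 9 hpf and 33.3 CPM at 6 hpf. The forkhead gene *foxq2-1* and the Wnt receptor *fzd5/8* were already present at 6 hpf and changed by smaller factors. *foxq2-1* had 394 CPM at 9 hpf and 78.8 CPM at 6 hpf, and *fzd5/8* had 395 CPM at 9 hpf and 82.6 CPM at 6 hpf. The list's exception was the proneural gene *acsc*, with 1.02 CPM at 9 hpf and 12.6 CPM at 6 hpf, and 20 of the 26 features under these names did not reach 10 CPM in either library.

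In the ectoderm axis list, *nodal*, *lefty* and *not* were low at 6 hpf and well above that level at 9 hpf, summed over all cells. *nodal*, the ligand that specifies the ventral side in sea urchins, had 168 CPM at 9 hpf and 9.65 CPM at 6 hpf. Its target and inhibitor *lefty* had 255 CPM at 9 hpf and 17.5 CPM at 6 hpf, and the homeobox gene *not* had 394 CPM at 9 hpf and 8.07 CPM at 6 hpf. Some receptors were higher too, with *bmpr2* at 92.8 CPM at 9 hpf and 18.4 CPM at 6 hpf and *alk4/5/7*, the receptor that transmits Nodal, at 85.7 CPM at 9 hpf and 17.0 CPM at 6 hpf. *alk1/2* and *alk3/6* HER_24974.t1 also passed the 2-fold limit. Within it were *acvr2_1* (41.1 CPM at 9 hpf and 25.8 CPM at 6 hpf) and *alk3/6* HER_24973.t1 (122 CPM at 9 hpf and 63.3 CPM at 6 hpf). The ligand *univin*, which is maternal in other sea urchins, stood at 1370 CPM at 9 hpf and 741 CPM at 6 hpf. In the other direction were *gsc*, a repressor downstream of Nodal (6.69 CPM at 9 hpf and 12.3 CPM at 6 hpf), which missed the 2-fold limit, and the BMP effector *smad1/5/8-1* (18.2 CPM at 9 hpf and 47.5 CPM at 6 hpf), which passed it.

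The 3 compared features named *bmp5-8*, a BMP ligand, divided. HER_6417.t1 had 130 CPM at 9 hpf and 1.75 CPM at 6 hpf. HER_9178.t1 had 92.9 CPM at 9 hpf and 131 CPM at 6 hpf, and HER_18968.t1 had 12.8 CPM at 9 hpf and 16.5 CPM at 6 hpf. Reads that fit more than 1 feature of a shared name could have been placed on either, which was not tested. Of the 4 compared Sox features 3 were higher and 0 lower. The SoxB genes, which hold ectoderm in an early state, were abundant at both times, with *soxb1* at 2216 CPM at 9 hpf and 1650 CPM at 6 hpf, and *soxb2* at 1395 CPM at 9 hpf and 438 CPM at 6 hpf.

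**Figure D3:**
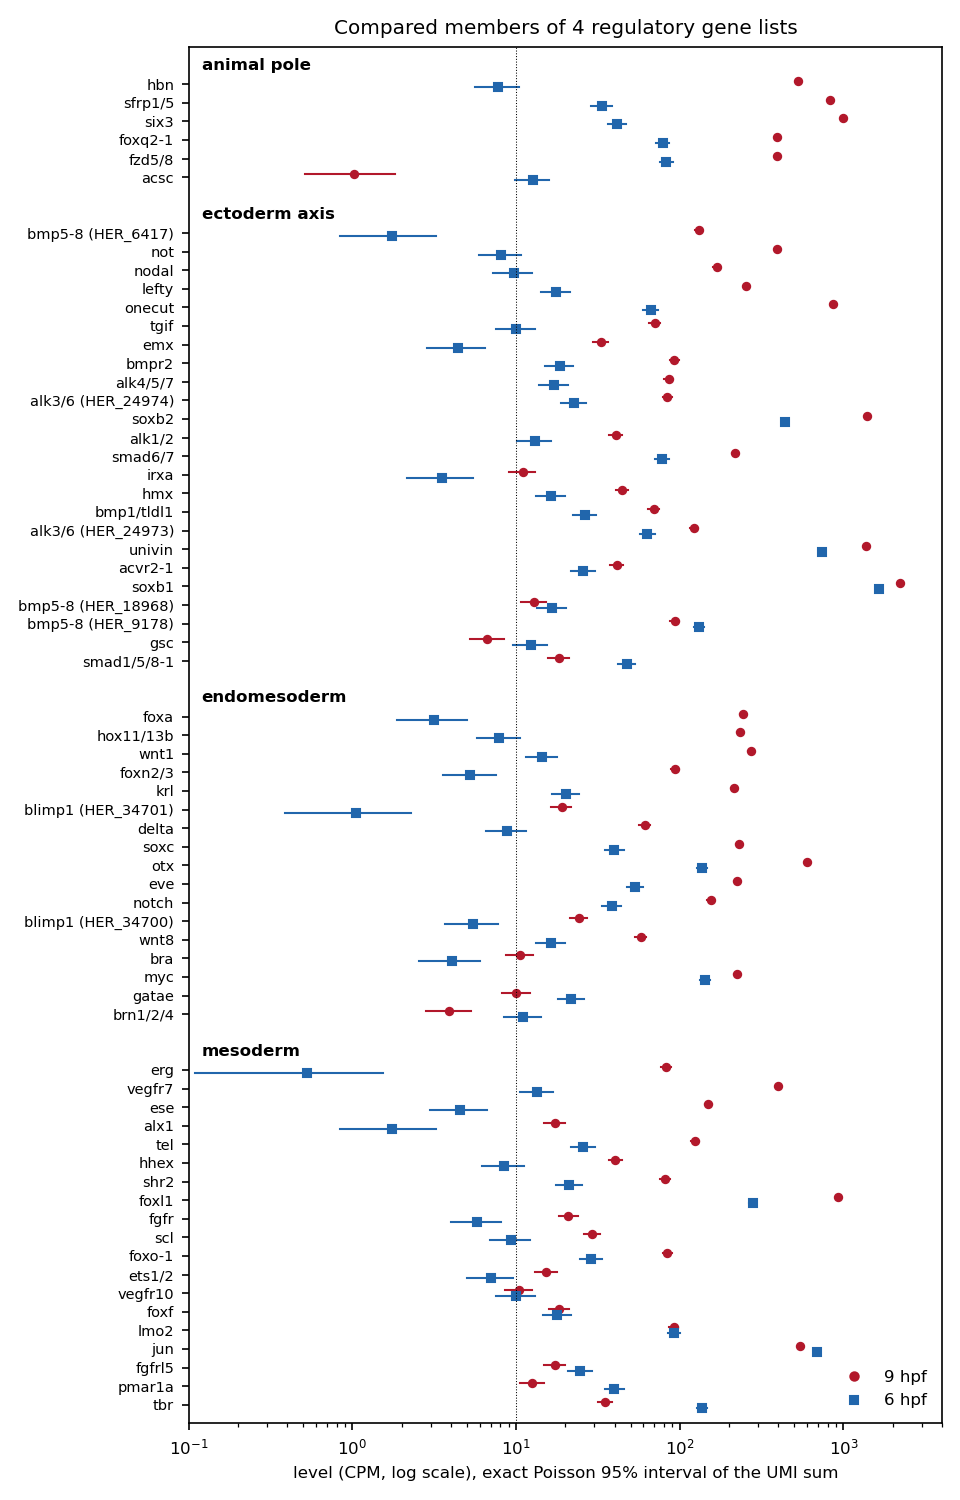
Levels in CPM (log scale) of the compared members of 4 regulatory lists at 9 hpf (red circles, upper) and 6 hpf (blue squares, lower), with exact Poisson 95% intervals of the UMI sum; the dotted line is 10 CPM, and a gene of 2 lists is drawn in the upper one. Circles lie to the right of squares for most genes, while *acsc*, *smad1/5/8-1*, *gatae* HER_5953.t1, *brn1/2/4*, *pmar1a* and *tbr* lie the other way by 2-fold or more.

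Most compared vegetal genes were higher at 9 hpf. *foxa*, the forkhead factor of the gut, had 243 CPM at 9 hpf and 3.16 CPM at 6 hpf, a ratio of 77.1 (48.7 to 130). *hox11/13b* had 232 CPM at 9 hpf and 7.89 CPM at 6 hpf, *wnt1* had 271 CPM at 9 hpf and 14.4 CPM at 6 hpf, and *foxn2/3* had 93.6 CPM at 9 hpf and 5.26 CPM at 6 hpf. The Krüppel-like repressor *krl* had 213 CPM at 9 hpf and 20.2 CPM at 6 hpf. Genes with a level of 30 CPM or more at 6 hpf were higher by smaller factors, as in *otx* (603 CPM at 9 hpf and 136 CPM at 6 hpf), *eve* (222 CPM at 9 hpf and 53.3 CPM at 6 hpf) and *soxc* (229 CPM at 9 hpf and 39.8 CPM at 6 hpf).

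The signal *delta*, a Notch ligand, had 61.1 CPM at 9 hpf and 8.77 CPM at 6 hpf, and the receptor *notch* had 154 CPM at 9 hpf and 38.6 CPM at 6 hpf. The 2 detected features of the gut GATA factor *gatae* went opposite ways. HER_5953.t1 had 10.0 CPM at 9 hpf and 21.8 CPM at 6 hpf, while HER_23477.t2, under the limit for comparison, had 73 UMIs (6.78 CPM) at 9 hpf and none at 6 hpf, at least 12.9-fold higher against the limit of 3 UMIs for that library. At 12 hpf HER_5953.t1 was at 1.85 CPM and HER_23477.t2 at 62.5 CPM. *brn1/2/4*, a POU factor, was lower, with 3.90 CPM at 9 hpf and 11.1 CPM at 6 hpf. Brachyury (*bra*) only just entered the comparison, at 10.5 CPM at 9 hpf and 4.03 CPM at 6 hpf.

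The mesoderm list, made by gene name, included genes seen almost only at 9 hpf. The Ets factor *erg* had 885 UMIs (82.2 CPM) at 9 hpf and 3 UMIs (0.53 CPM) at 6 hpf, and the Ets factor *ese* had 149 CPM at 9 hpf and 4.56 CPM at 6 hpf. *vegfr7*, named for a VEGF receptor, had 398 CPM at 9 hpf and 13.3 CPM at 6 hpf. *alx1*, which directs skeletal cells, was low at both times, with 17.3 CPM at 9 hpf and 1.75 CPM at 6 hpf. The repressor *pmar1a* and the T-box factor *tbr*, which act upstream of it or beside it in micromeres of other sea urchins, were lower. *pmar1a* had 12.5 CPM at 9 hpf and 39.8 CPM at 6 hpf, and *tbr* had 35.0 CPM at 9 hpf and 136 CPM at 6 hpf. They do not stand for micromere genes as a group. *foxl1* peaked here, with 929.9 CPM at 9 hpf and 279 CPM at 6 hpf before 18.2 CPM at 12 hpf. A place in this list does not place an RNA in mesoderm. By the shares of cells given below, *vegfr7* and *foxl1* were more frequent in animal pole than in endomesoderm cells.

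In the Wnt pathway 14 of 21 compared features were higher and 3 lower by 2-fold or more. Of 7 compared features named for Wnt ligands, a group chosen after the values were seen, 6 were higher and *wnt4* was lower (2.69 CPM at 9 hpf and 10.3 CPM at 6 hpf). *wnt5* HER_37861.t1 had 126 CPM at 9 hpf and 5.44 CPM at 6 hpf, and *wnt16* had 32.6 CPM at 9 hpf and 2.28 CPM at 6 hpf. The extracellular inhibitor *dkk1* had 217 CPM at 9 hpf and 7.19 CPM at 6 hpf, and the co-receptor *lrp6* had 376 CPM at 9 hpf and 72.1 CPM at 6 hpf. Intracellular members differed among themselves. *axin* (121 CPM at 9 hpf and 54.2 CPM at 6 hpf) and the beta-catenin gene *ctnnb* (59.4 CPM at 9 hpf and 27.5 CPM at 6 hpf) were higher by 2-fold, while *dsh* (81.3 CPM at 9 hpf and 87.4 CPM at 6 hpf) and *tcf* (249.6 CPM at 9 hpf and 242 CPM at 6 hpf) were within it. *porcupine*, the enzyme that adds a lipid to Wnt ligands, had 4.27 CPM at 9 hpf and 23.2 CPM at 6 hpf.

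Of 11 forkhead features 9 were higher and 1 lower by 2-fold or more, and all 3 compared Hox features were higher. *hox11/13c* had 206 UMIs (19.1 CPM) at 9 hpf and 4 UMIs (0.70 CPM) at 6 hpf, and *hox7* had 33.5 CPM at 9 hpf and 2.46 CPM at 6 hpf. The other 14 Hox and ParaHox features stayed under 10 CPM at both times.

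For 4 of these regulators the study designed DNA probes for hybridization chain reaction, a staining method in which the 2 neighbouring probes of a pair start a fluorescent chain on the transcript. They are shown because their capitals, which pair with these transcripts, identify what was targeted, and they were matched to features by gene name, with no alignment. The first pair of each set is printed 5′ to 3′, with the 25 bases that bind the RNA in capitals and the initiator with its spacer in lower case.

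onecut 1: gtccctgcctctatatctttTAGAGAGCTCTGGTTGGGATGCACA
onecut 2: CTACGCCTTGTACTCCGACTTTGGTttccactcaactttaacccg
lim1 1: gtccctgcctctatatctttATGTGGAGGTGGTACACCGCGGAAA
lim1 2: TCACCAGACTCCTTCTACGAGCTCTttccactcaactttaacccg
hox7 1: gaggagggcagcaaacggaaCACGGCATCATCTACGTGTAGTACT
hox7 2: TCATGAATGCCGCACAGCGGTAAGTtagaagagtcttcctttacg
hmx 1: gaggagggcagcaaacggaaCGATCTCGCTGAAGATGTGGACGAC
hmx 2: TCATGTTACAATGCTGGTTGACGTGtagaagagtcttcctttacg

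The sets held 52 probe sequences for *onecut*, 50 for *lim1*, 31 for *hox7* and 44 for *hmx*. All 4 transcripts were higher at 9 hpf by 2-fold or more. *onecut*, a regulator of the ciliary band, had 869 CPM at 9 hpf and 66.3 CPM at 6 hpf and was found in 48.6% of thinned cells at 9 hpf and 6.38% at 6 hpf. The LIM homeobox gene *lim1* had 561 CPM at 9 hpf and 10.5 CPM at 6 hpf, with a ratio of 53.3 (41.3 to 69.9). The homeobox gene *hmx* had 44.4 CPM at 9 hpf and 16.3 CPM at 6 hpf, and *hox7*, with the values above, was the least abundant.

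The territory genes were not spread over the embryo. At 9 hpf 2144 of 3858 cells (55.6%) held at least 2 UMIs of the animal pole markers *hbn*, *six3*, *foxq2-1* and *fzd5/8*, 1060 (27.5%) held at least 2 UMIs of the endomesoderm markers *foxa*, *hox11/13b*, *foxn2/3* and *wnt1*, and 69 cells met both. At 6 hpf the numbers were 270 (14.4%) and 24 (1.28%) of 1881 cells, with 1 cell in both. The share of one set of cells gives the background of the other. A gene's own UMIs were left out when its cells were chosen, the markers were used before thinning, and median depths of the sets at 9 hpf were 2645 and 2634 UMIs.

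*six3* had a UMI in 76.9% of animal pole cells and 4.25% of endomesoderm cells at 9 hpf, and *hbn* in 45.8% and 2.45% of them. In the other direction *foxa* was found in 50.4% of endomesoderm cells and 2.10% of animal pole cells, *hox11/13b* in 53.7% and 1.12%, and *wnt1* in 53.2% and 1.07%. Genes outside the marker sets divided too. *eve* (45.1%), *krl* (42.1%), *soxc* (44.5%), *wnt5* (34.4%), *dkk1* (33.9%), *ese* (34.2%), *erg* (24.2%) and *delta* (17.6%) were found in these shares of endomesoderm cells, against 0.42% to 5.83% of animal pole cells. On the animal side were *onecut*, in 67.1% of animal pole and 12.4% of endomesoderm cells, *lefty*, in 22.0% and 4.72%, *nodal*, in 16.2% and 3.40%, and the ciliary regulator *foxj1*, in 13.3% and 1.89%. *not* (32.1% of animal pole and 35.0% of endomesoderm cells) and *lim1* (32.6% and 29.9%) had overlapping intervals in the 2 sets. Over all thinned cells *not* was in 31.6%, and *lim1* in 35.4%, above its share in either set. Overlap of the 2 sets thus does not make a gene evenly spread.

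**Figure D4:**
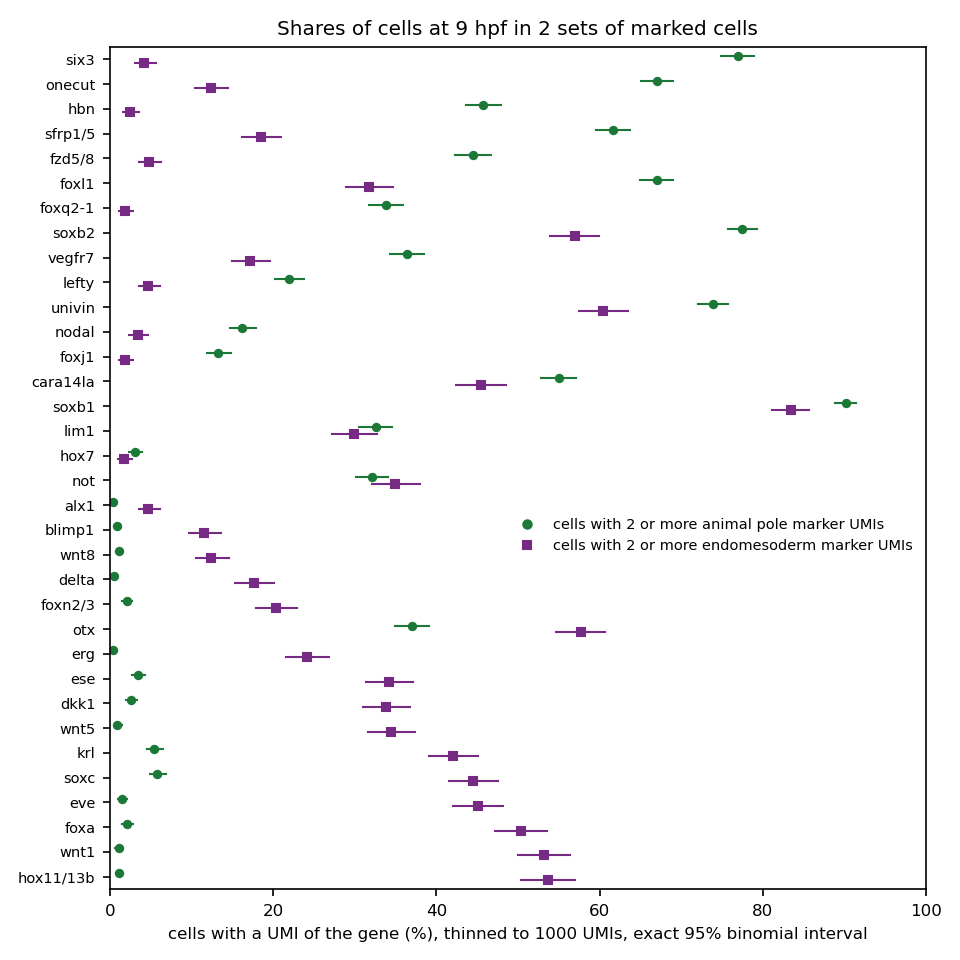
Share of cells with a UMI of each gene at 9 hpf, after thinning to 1000 UMIs, in cells that held at least 2 animal pole marker UMIs (green circles) or at least 2 endomesoderm marker UMIs (purple squares), with exact binomial 95% intervals. Genes at the top, led by *six3* at 76.9% and 4.25%, were more frequent in animal pole cells. Those at the bottom, ending with *hox11/13b* at 1.12% and 53.7%, were more frequent in endomesoderm cells. *lim1*, *hox7* and *not* have overlapping intervals.

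At 6 hpf the animal pole markers hardly set their cells apart. *hbn* was in 2.38% of animal pole cells and 0.904% of all thinned cells, and *six3* in 6.50% and 4.52%. *foxq2-1* was in 12.2% and 7.92% of them, and *fzd5/8* in 6.92% and 8.88%. The intervals overlapped for each marker. All thinned cells, which include the set itself, stand here in place of the opposite territory used at 9 hpf. The 24 endomesoderm cells limit what can be read there. *krl* was found in 6 of 24 endomesoderm cells and 1.11% of animal pole cells, and *eve* in 5 of 24 endomesoderm cells and 2.96% of animal pole cells. The median depths of these sets were 2965.5 UMIs in endomesoderm and 3078 UMIs in animal pole cells.

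Some abundant RNAs lay in fewer cells than their level would give. The share of thinned cells was set against the share that the same summed level would give if spread evenly over cells, and the median of this quotient over all compared features was 0.970 at 9 hpf. It was 0.55 for *dkk1*, 0.60 for *foxq2-1*, 0.63 for *hbn* and *wnt1*, 0.69 for *six3*, 0.70 for *foxa* and 0.48 for the RNA polymerase subunit *polr2h*. The quotient can stay nearer 1 at lower levels: *delta* and *erg*, divided between the territories as above, had 0.86 and 0.85. It did not for *scl*, which had 0.60 at 29.3 CPM. *polr2h* had 402 CPM at 9 hpf and 44.2 CPM at 6 hpf, yet a UMI in 15.9% of thinned cells at 9 hpf and 4.20% at 6 hpf.

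Hatching enzyme genes were higher at 9 hpf throughout. The 7 compared features named *he1*, a group chosen after the values were seen, all with neighbouring identifiers between HER_24949.t1 and HER_24959.t1, were higher by 2-fold or more. *he1* HER_24949.t1 had 287 CPM at 9 hpf and 50.5 CPM at 6 hpf, and HER_24955.t1 had 147 CPM at 9 hpf and 27.5 CPM at 6 hpf. All 7 were lower again at 12 hpf, at 1.35 to 16.5 CPM. Their sequences are close relatives by name, so the division of reads among them is uncertain, while the 8 features of the name together held 0.0834% of UMIs at 9 hpf and 0.0163% at 6 hpf. In the list of secreted proteases 11 of 14 features were higher and 3 lower. *mmp14*, a membrane matrix metalloprotease, had 160 CPM at 9 hpf and 3.68 CPM at 6 hpf, and *astacin7* had 10.1 CPM at 9 hpf and 58.6 CPM at 6 hpf.

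In the list of cilium genes 19 of 56 compared features (33.9%) were higher and 4 (7.14%) lower, beside 21.7% higher and 18.3% lower over all features, and the median was 0.52. *foxj1*, the master regulator of motile cilia, had 105 CPM at 9 hpf and 8.24 CPM at 6 hpf. Of the 3 compared tektins, filament proteins of the axoneme, *tektin3* had 116 CPM at 9 hpf and 11.4 CPM at 6 hpf, *tektin2* had 186 CPM at 9 hpf and 24.4 CPM at 6 hpf, and *tektin1-4* was within 2-fold, with 42.1 CPM at 9 hpf and 34.2 CPM at 6 hpf. The radial spoke gene *rsp3h* had 197 CPM at 9 hpf and 34.6 CPM at 6 hpf. At 12 hpf *foxj1* had 25.9 CPM and *tektin2* 382 CPM.

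The classes of histone genes differed in direction, in a grouping by name made after the values were seen. Sea urchins use cleavage-stage, early and late histone sets in turn. The 3 cleavage-stage features were all lower, with *clvhh1* at 1014 CPM at 9 hpf and 2980.3 CPM at 6 hpf, *clvhh2a* at 767 CPM at 9 hpf and 1763 CPM at 6 hpf, and *clvhh2b* at 113 CPM at 9 hpf and 284 CPM at 6 hpf. Of 9 compared features named as early histones 5 were higher and 2 lower. Beside *ehh1_29*, the neighbouring identifiers held *ehh2b_94* (1252 CPM at 9 hpf and 623 CPM at 6 hpf), *ehh2a_67* HER_5738.t1 (1176 CPM at 9 hpf and 856 CPM at 6 hpf) and *ehh3_57* HER_5739.t1 (328 CPM at 9 hpf and 149 CPM at 6 hpf), none of which changed as much as the H1. All 5 compared late histones were higher at low levels, as in *lhh1a* (46.2 CPM at 9 hpf and 4.74 CPM at 6 hpf) and *lhh1b* (18.4 CPM at 9 hpf and 1.40 CPM at 6 hpf). The 20 compared histone features took 13.4% of UMIs at 9 hpf and 3.56% at 6 hpf. Most of this was *ehh1_29* at 9 hpf (112145 CPM) but not at 6 hpf (16651 CPM).

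Cell cycle genes did not move as a group, with 8 of 58 compared features higher, 11 lower and a median of −0.23. Over all features 21.7% were higher and 18.3% lower. Single members differed by more. *cdc20* HER_7212.t1, which encodes an activator of the anaphase-promoting complex, had 291 CPM at 9 hpf and 8.42 CPM at 6 hpf, while a second *cdc20*, HER_20623.t1, had 196 CPM at 9 hpf and 426 CPM at 6 hpf. *wee1*, the kinase that holds back entry into mitosis, had 370.2 CPM at 9 hpf and 66.8 CPM at 6 hpf. The largest negative changes of the list were those of *pole2*, a DNA polymerase subunit (213 CPM at 9 hpf and 981 CPM at 6 hpf), *rrm1*, of ribonucleotide reductase (16.7 CPM at 9 hpf and 97.2 CPM at 6 hpf), and *mcm5*, of the replicative helicase (33.2 CPM at 9 hpf and 114 CPM at 6 hpf). Of the 7 compared *mcm* features, grouped after the values were seen, 2 were lower by 2-fold and 5 were within it. Cyclin B (*cycb*) stayed abundant, at 6220.1 CPM at 9 hpf and 8544 CPM at 6 hpf.

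Housekeeping groups had medians on either side of that of all features (−0.10), of which 21.7% were higher and 18.3% lower. Ribosomal proteins had 10 of 88 features higher and 22 lower (median −0.39), mitochondrial respiration 9 of 45 higher and 13 lower (median −0.38), translation factors 4 of 41 higher and 3 lower (median 0.25), and proteasome and chaperones 14 of 82 higher and 12 lower. Within them *rpl35* had 119 CPM at 9 hpf and 599 CPM at 6 hpf and *atp5g1*, the c subunit of ATP synthase, had 199 CPM at 9 hpf and 1401 CPM at 6 hpf, while the alpha subunit *atp5a1* had 115 CPM at 9 hpf and 11.1 CPM at 6 hpf. The chaperone *hsp40b* had 16.0 CPM at 9 hpf and 141 CPM at 6 hpf.

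The counts of this paragraph can be set beside 21.7% higher and 18.3% lower over all features. Splicing genes showed a similar mixture, 20 of 94 higher and 15 lower, with RNA-binding proteins among the largest positive changes. *hnrpl* had 679.9 CPM at 9 hpf and 53.2 CPM at 6 hpf, *snrp70*, of the U1 particle, had 1002 CPM at 9 hpf and 169 CPM at 6 hpf, and the helicase *ddx3y* had 314 CPM at 9 hpf and 30.5 CPM at 6 hpf. Genes of mRNA decay and storage had 3 of 34 higher and 6 lower, the lower ones including *cpeb1* and *btg4*, which act on maternal mRNA in vertebrate oocytes: *cpeb1* had 18.4 CPM at 9 hpf and 46.0 CPM at 6 hpf, and *btg4* had 122 CPM at 9 hpf and 250.5 CPM at 6 hpf. RNA polymerase II and its initiation factors had 10 of 48 higher and 6 lower. Solute carriers had 51 of 196 higher and 43 lower.

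Zinc finger genes with a Z number were higher in 21 of 130 compared features and lower in 39 (30.0%), beside 18.3% lower over all features, with a median of −0.54. The class held both extremes: *z155* had 76.2 CPM at 9 hpf and 0.70 CPM at 6 hpf, *z64* had 231 CPM at 9 hpf and 7.54 CPM at 6 hpf, and *z499* had 1.30 CPM at 9 hpf and 24.7 CPM at 6 hpf. In the germline list 3 of 10 features were higher and 1 lower, beside 21.7% higher and 18.3% lower over all features. Those higher were a *tdrd4* feature, *tdrd3l_1* and *tdrd1*, and the lower one was *boule*. *vasa*, an RNA helicase of germ cells, was called neither, at 30.6 CPM at 9 hpf and 15.1 CPM at 6 hpf. Nor were *seawi-1*, a Piwi protein (408 CPM at 9 hpf and 309 CPM at 6 hpf), and *nanos2* (56.0 CPM at 9 hpf and 51.4 CPM at 6 hpf).

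Of the 117 switched-on features 87 had a gene name, 8 had no UMI at 6 hpf, and 3 reached 100 CPM at 9 hpf. Their median level was 15.6 CPM, and they were found in 0.726% to 30.0% of thinned cells at 9 hpf (median 1.53%). At such levels a share of cells does not show whether an RNA is confined to some of them. Named regulators among them were *erg*, *hox11/13c*, *ski* (19.3 CPM at 9 hpf and 0.18 CPM at 6 hpf), *wnt5* HER_28376.t1 (14.1 CPM at 9 hpf and 0.88 CPM at 6 hpf) and the zinc fingers *z155*, *z475* (49.7 CPM at 9 hpf and 0.35 CPM at 6 hpf) and *z175* (21.3 CPM at 9 hpf and 0.53 CPM at 6 hpf). Surface receptors were *tie1/2* (25.9 CPM at 9 hpf and 0.18 CPM at 6 hpf) and the protocadherin *fat* (50.1 CPM at 9 hpf and 0.53 CPM at 6 hpf).

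Of the switched-on features 6 carried the name *thap2*. All 11 compared *thap2* features were higher by 2-fold or more, with a median of 4.77, a group chosen after the values were seen. *thap2* HER_392.t1 had 306 UMIs (28.4 CPM) at 9 hpf and none at 6 hpf, at least 54.0-fold higher against the limit of 3 UMIs for that library, and HER_30137.t1 had 13.5 CPM at 9 hpf and none at 6 hpf, at least 25.6-fold higher. Features with the prefix *pppl* had 8 of 9 compared higher and 0 lower, as did those with the prefix *endrvt*, by that name endonuclease and reverse transcriptase proteins of mobile elements, with 8 of 11 higher and 0 lower. Such names belong to repeated gene families, and reads of near-identical copies could have been divided among them or lost in counting.

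The later libraries, which played no part in choosing the features, showed what became of the switched-on set. The set was chosen for its 9 hpf level, which favours a highest level there. Its highest level was at 9 hpf in 43 of 117 features, at 12 hpf in 40, at 16 hpf in 19, at 20 hpf in 5, at 24 hpf in 3 and at 30 hpf in 7. Of all compared features, 18.0% were highest at 9 hpf. In all, 84 features had 10 CPM or more at 12 hpf and 54 did at 30 hpf. The median level was 15.6 CPM at 9 hpf, 17.6 CPM at 12 hpf, 14.9 CPM at 16 hpf, 10.2 CPM at 20 hpf, 9.08 CPM at 24 hpf and 8.84 CPM at 30 hpf. A level of 10 CPM was held in all 5 later libraries by 41 features and in none by 28.

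Among those with a higher level at 12 hpf was *hox11/13c*, at 19.1 CPM at 9 hpf, 419.9 CPM at 12 hpf and 67.2 CPM at 30 hpf, and *tie1/2*, at 25.9 CPM at 9 hpf and 104 CPM at 12 hpf. Brief expression was seen in *endrvt79*, at 16.0 CPM at 9 hpf and 0.369 CPM at 12 hpf, and *srcr231*, at 38.6 CPM at 9 hpf and 4.92 CPM at 12 hpf.

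**Figure D5:**
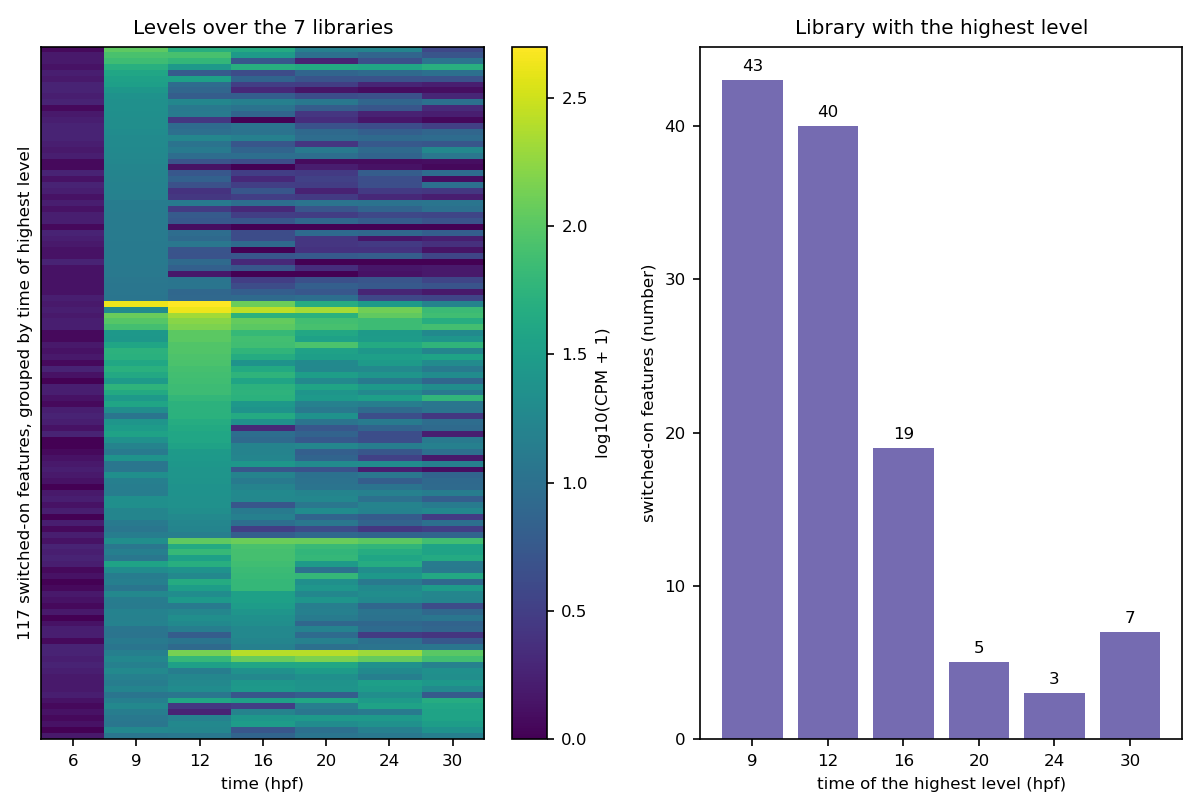
Left, levels of the 117 switched-on features, log10 of CPM plus 1, in the 7 libraries from 6 to 30 hpf, each row a feature. Right, the number of features whose level was highest in each library, 43 at 9 hpf and 40 at 12 hpf.

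Of the 956 features higher by 4-fold at 9 hpf, a set chosen for its 9 hpf level, 422 (44.1%) had their highest level there, beside 18.0% of all compared features. At 12 hpf 219 (22.9%) were below 50% of their 9 hpf level, beside 26.3% of all compared features. The deepest drop among named features with 50 CPM or more was that of *tcknr2*, which had 1.93 CPM at 6 hpf, 298 CPM at 9 hpf and 2.59 CPM at 12 hpf. *gabbr2l_1*, named for a GABA receptor, had 67.01 CPM at 6 hpf, 1050.4 CPM at 9 hpf and 88.3 CPM at 12 hpf, and *hypp_191* had 24.7, 838 and 61.4 CPM at these times. *nup93* HER_46282.t1, by its name a nuclear pore protein, had 41.0 CPM at 6 hpf, 502 CPM at 9 hpf and 39.6 CPM at 12 hpf. *ehh1_29* itself was at 64242 CPM at 12 hpf and 153 CPM at 30 hpf.

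Features that were lower at 9 hpf mostly stayed below their 6 hpf level. Of the 307 lower by 4-fold at 9 hpf, 140 (45.6%) were below 50% of their 9 hpf level at 12 hpf, beside 26.3% of all compared features. In this set, chosen for a 6 hpf level above that at 9 hpf, 3 features had regained their 6 hpf level at 12 hpf and 13 at 30 hpf. *atp5g1* was one that returned, at 1401 CPM at 6 hpf, 199 CPM at 9 hpf, 717 CPM at 12 hpf and 4217 CPM at 30 hpf.

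The following step was set beside this one with all 3 libraries thinned to the 5700817 UMIs of the 6 hpf library. Between 6 and 9 hpf 1914 of 8826 compared features (21.7%) were higher at the later time by 2-fold or more and 1625 (18.4%) lower, with 116 switched on and 5 cleared. Between 9 and 12 hpf 1112 of 8604 features (12.9%) were higher and 1901 (22.1%) lower, with 28 switched on and 22 cleared. Both steps share the 9 hpf library, and the difference between them was not tested.

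The number of genes per cell was lower at 9 hpf in spite of the switched-on features. At 1000 UMIs per cell the median was 676.5 genes at 9 hpf (quartiles 649 and 701) and 702 genes at 6 hpf (678 and 726), and the 50 most abundant features took 24.9% of UMIs at 9 hpf and 20.8% at 6 hpf. Both orders turned round once *ehh1_29* was left out, with 747 genes at 9 hpf and 711 genes at 6 hpf, and 15.6% of UMIs at 9 hpf and 19.6% at 6 hpf.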

How the data were processed

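The authors deposited raw UMI counts per feature and cell from Cell Ranger 3.1.0, with Seurat 4.0 also named in their processing notes. The genome build is not given in the sources used here. The cell filters of the report were applied to those counts, doublets were kept with no caller run, and UMIs were summed per library. Change was log2 of (CPM + 1) at 9 hpf over (CPM + 1) at 6 hpf. Intervals are exact Poisson (sums and their ratios) or Clopper-Pearson (shares) intervals at 95% and cover counting error only. With 1 library per time point no test was run.

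Named features had at least 50 CPM in 1 of the 2 libraries and a gene name: the 12 with the largest and the 12 with the smallest log2 change, and the 5 with the largest gain and the 5 with the largest loss in CPM, with up to 6 examples per list and side. Members, lists and rules were chosen with earlier results of these data known, and the spelling of names in 14 lists was adapted after the values were seen. Features that share a name were kept apart by identifier. Alternatives were other scalings, minimums, pseudocounts, thinning depths and cell sets. The calculations were tested on simulated data. Python 3.11.15, numpy 2.4.6, scipy 1.17.1, pandas 2.3.3 and matplotlib 3.10.9 were used, with R 4.3.3 and edgeR 4.0.16 for TMM factors.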

Additional observations from a re-analysis of the deposited data

How the results depend on the processing

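No paired analysis was possible because there is 1 library per time point. With a minimum of 50 CPM, 4113 features were compared, of which 879 were higher and 878 lower by 2-fold, and 11.6% higher and 4.50% lower by 4-fold. With no minimum, 3296 of 23442 were higher by 2-fold, and 5.04% higher and 1.44% lower by 4-fold. A pseudocount of 5 CPM gave 6.81% higher and 1.88% lower by 4-fold. Switched-on features numbered 280, 41 and 11 with minimums of 5, 20 and 50 CPM, 50 and 260 with lower limits of 0.5 and 2 CPM, and 68 with features of a shared name summed. Cleared features numbered 26, 1 and 0 with these minimums, 0 and 22 with these limits, 5 without the cells in the top 5% of UMIs, and 1 with *ehh1_29* left out of the totals, an alternative added after seeing the data. The median share of cells over switched-on features was 3.72% with no thinning, 0.769% and 2.77% at 500 and 2000 UMIs, and 0.0518% for at least 2 UMIs. With a minimum of 5 CPM, 103 of the switched-on features were highest at 9 hpf and 154 reached the minimum at 30 hpf. Median genes per cell were 374 at 9 hpf and 394 at 6 hpf with 500 UMIs, and 1187.5 at 9 hpf and 1212 at 6 hpf with 2000 UMIs. Without *ehh1_29*, also added after seeing the data, the top 50 features took 15.6% of UMIs at 9 hpf. For the 33 named features, 280 of 297 values under 9 alternatives stayed within 0.5 on the log2 scale, 17 moved further, all with another pseudocount, and 0 changed sign. At 1 CPM the 6 hpf library holds 5.70 UMIs, so a level just under the limits rests on few molecules.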

Other observations

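Among the compared features 595 gene names were shared by more than 1 feature, and 27 of these names had a feature higher and another lower by 2-fold or more. In 65 names all features were higher, and in 48 all were lower. *kras*, a small GTPase of growth signalling, had HER_32111.t1 at 30.4 CPM at 9 hpf and 3.68 CPM at 6 hpf, and HER_32110.t1 at 80.2 CPM at 9 hpf and 202 CPM at 6 hpf. *sumo*, a small protein modifier, had HER_48531.t1 at 50.6 CPM at 9 hpf and 6.67 CPM at 6 hpf, and HER_30763.t1 at 18.9 CPM at 9 hpf and 54.2 CPM at 6 hpf. *nup93* HER_46280.t1 had 9.66 CPM at 9 hpf and 33.7 CPM at 6 hpf, opposite to HER_46282.t1 with 502 CPM at 9 hpf and 41.0 CPM at 6 hpf. These names were chosen after their values were seen. Whether such features are separate genes or pieces of 1 gene was not tested.

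Features with the prefixes *mett* and *nudt* were lower more often than higher, in groups also made by name after the values were seen. Over all compared features 21.7% were higher and 18.3% lower. Features with the prefix *mett*, for methyltransferase-like proteins, had 0 of 15 higher and 7 lower by 2-fold or more, with a median log2 change of −0.95. Those with the prefix *nudt*, for Nudix hydrolases, had 1 of 9 higher and 5 lower, with a median of −1.08, against −0.10 over all features.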
